A study of Mus musculus with 12 samples.

Results

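A set of 9 genes that act when neutrophils are called, slowed and held at a vessel wall was followed in the blood neutrophils (PMN) of mice with ischemia-reperfusion injury (IRI) of the kidney. They are the chemokine receptors Cxcr2 and Cxcr4, the β2 integrin chains Itgam, Itgal and Itgb2, the selectin ligand Selplg, and the chemoattractant receptors Fpr1, Fpr2 and C5ar1. They were chosen by gene name, and all 9 were found among the 50434 gene symbols of the PMN table and the 50433 of the table for renal tubular epithelial cells (TECs). All 9 passed the expression filter in PMN, where 10130 genes were tested, and 6 of the 9 passed it in TECs, where 14734 genes were tested.

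The study gave wildtype mice glutamine or vehicle after both renal pedicles had been clamped for a time and released. Cells were taken 24 hours after the procedure. Its methods name male C57BL/6J mice, glutamine as an intravenous alanyl-glutamine dipeptide, and saline as the vehicle. Every group therefore had IRI, and no sham-operated library was analysed here. The groups were PMN with vehicle, PMN with glutamine, TECs with vehicle and TECs with glutamine, with 3 libraries each. TECs had been sorted as CD45- and Prominin-1+ cells from kidney, whereas the gate for the blood cells is not given in the sources used here. The labels do not say that each library came from 1 mouse, so the p-values below measure the spread between libraries.

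As background, a neutrophil leaves the blood in steps. PSGL-1, the protein of Selplg, binds P-selectin and lets the cell roll. Signals from receptors for chemokines, formyl peptides and complement C5a then switch the β2 integrins to a state that binds ICAM-1, and the cell stops and crawls. CXCR2, which answers to CXCL1 and CXCL2, releases neutrophils from bone marrow, while CXCR4, which answers to CXCL12, retains them there and draws aged ones back. The paired chains matter too, since the α chains Itgam (CD11b) and Itgal (CD11a) reach the surface only with the common chain Itgb2 (CD18), giving Mac-1 and LFA-1.

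In the gene annotation (GENCODE M21 on GRCm38) the 9 genes lie on 5 chromosomes. Fpr1 and Fpr2 are divergent neighbours, chr17:17876471-17883940 on the minus strand and chr17:17887824-17893952 on the plus strand, with 3884 bases between their starts. Itgam (chr7:128062640-128118491, plus strand) and Itgal (chr7:127296260-127335138, plus strand) share chromosome 7 with C5ar1 (chr7:16246743-16259540, minus strand). Cxcr2 (chr1:74153989-74161246, plus strand) and Cxcr4 (chr1:128588199-128592293, minus strand) are both on chromosome 1. Itgb2 is at chr10:77530252-77565708 on the plus strand and Selplg at chr5:113818536-113832644 on the minus strand. The counts are of whole genes, so they cover exons of every transcript annotated there.

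RefSeq promoter sequence (GRCm38.p6) was at hand for 6 of the 9 genes, namely Cxcr2, Cxcr4, Itgam, Fpr1, Fpr2 and C5ar1. The 250 bases before each start site were searched on both strands for GAGGAA, the core of the PU box bound by the myeloid factor PU.1, which reads TTCCTC on the other strand. It occurred in 3 of these 6 windows, against 23.25% of 32851 windows of the same length over all genes. The 3 windows that hold it are printed 5′ to 3′ along the gene's strand, with the matching letters in capitals, because they show where this myeloid motif lies relative to the start of a chemokine receptor, an integrin chain and a formyl peptide receptor.
Cxcr2 (chr1:74153744-74153993, plus strand): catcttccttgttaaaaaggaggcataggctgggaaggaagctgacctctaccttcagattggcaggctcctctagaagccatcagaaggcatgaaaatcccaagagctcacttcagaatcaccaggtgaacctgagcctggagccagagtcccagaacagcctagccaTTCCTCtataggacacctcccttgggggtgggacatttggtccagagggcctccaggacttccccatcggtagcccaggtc
Itgam (chr7:128062390-128062639, plus strand): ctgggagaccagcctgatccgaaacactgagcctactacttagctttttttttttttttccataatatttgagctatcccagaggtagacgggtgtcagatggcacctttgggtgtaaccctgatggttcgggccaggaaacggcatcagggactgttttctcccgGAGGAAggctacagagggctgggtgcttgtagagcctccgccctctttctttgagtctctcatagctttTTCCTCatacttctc
Fpr2 (chr17:17887574-17887823, plus strand): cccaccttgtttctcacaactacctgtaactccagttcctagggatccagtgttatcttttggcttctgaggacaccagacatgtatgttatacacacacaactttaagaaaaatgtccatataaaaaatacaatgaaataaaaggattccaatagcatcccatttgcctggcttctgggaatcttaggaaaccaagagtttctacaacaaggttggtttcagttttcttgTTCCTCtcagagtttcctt
In Itgam the letters begin 84 bases before the start site on the gene's strand and again 15 bases before it on the other strand. The Cxcr2 match begins 81 bases and the Fpr2 match 19 bases before the start, both on the other strand. A match describes letters only and was not tested as a binding site.

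The PMN libraries held between 20225246 and 21878446 estimated counts and the TEC libraries between 5397370 and 10223461. All 10 neutrophil markers were found in every PMN library, led by S100a8 at 6511 to 26050 CPM (counts scaled to a common library total). Their sum was 37666 to 60504 CPM with vehicle and 74252, 50426 and 30906 CPM in glutamine libraries 1 to 3, so glutamine library 3, the highest for Cxcr4, Itgam and Itgb2, was the lowest of the 6. Mmp9, Trem1 and Il1r2 were higher in all glutamine libraries than in all vehicle libraries, Mmp9 at 760.5 to 1288 against 531.5 to 554.6 CPM, an order that 5.65% of all genes tested had. Markers of other cells were present too. The 8 monocyte and macrophage markers, all found in every library, summed to 2127 to 4991 CPM with vehicle and 2579 to 8400 CPM with glutamine, the highest in glutamine library 3. The 9 tubular epithelial markers summed to 1167 CPM in vehicle library 1, of which Umod, the urinary protein uromodulin, made up 990.3 CPM, and to 92.3 CPM or less in the others. Pan-leukocyte markers (Ptprc, Coro1a, Laptm5) summed to 2167 to 3373 CPM with vehicle and 3441 to 4026 CPM with glutamine, with no overlap. Ptprc and Laptm5 each parted in this direction, as 5.65% of all genes tested did. Coro1a overlapped, at 746.4 to 1532 CPM with vehicle and 925.7 to 1174 CPM with glutamine. T and NK cell markers summed to at most 21.4 CPM. B cell markers summed to 0.50 to 2.64 CPM with vehicle and 30.0 to 47.2 CPM with glutamine, with no overlap. One of them, Cd79b, was at 0 in all vehicle libraries and at 19.0 to 28.1 CPM with glutamine, an order shared by 5.65% of all genes tested. Eosinophil and basophil markers were at 0 in all vehicle libraries and in glutamine library 1, and summed to 53.1 and 34.8 CPM in glutamine libraries 2 and 3. The part of these markers in the results was not tested. Platelet markers summed to 465.2 to 1066 CPM, mostly Pf4, and of 8 granule genes of immature neutrophils 2, Chil3 and Ngp, were found in every library. In bulk RNA, fewer cells of a type and less RNA per cell cannot be told apart.

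**Figure D1:**
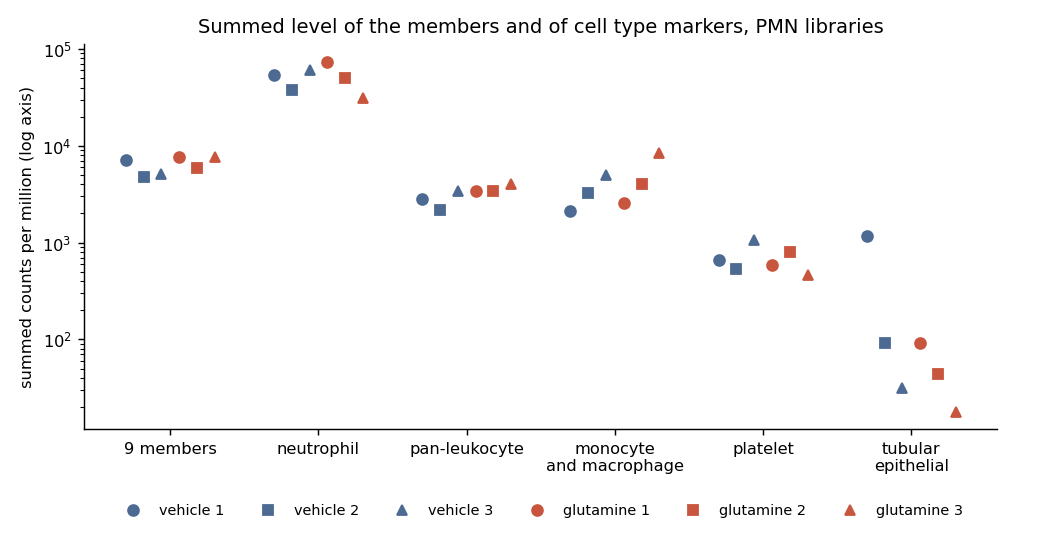
Summed CPM (log axis) of the 9 trafficking genes and of 5 marker lists in each PMN library, 3 with vehicle (blue) and 3 with glutamine (red), each symbol 1 library. Vehicle 1 stands out for tubular epithelial genes (1167 CPM) and glutamine 3 for monocyte and macrophage genes (8400 CPM), while the 9 genes together span only 4790 to 7636 CPM.

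Cxcr2, the receptor for CXCL1 and CXCL2, was well expressed in PMN, and the spread between libraries exceeded the difference between groups. Its CPM were 1088, 466.3 and 580.3 in vehicle libraries 1 to 3, and 985.0, 607.0 and 837.2 in glutamine libraries 1 to 3. The highest value was thus a vehicle library, and the groups overlapped. Mean levels were 711.6 ± 331.1 CPM with vehicle and 809.7 ± 190.4 CPM with glutamine (n = 3, SD). The fitted log2 fold change, glutamine over vehicle, was 0.23 (SE 0.41, 95% interval -0.74 to 1.20, edgeR quasi-likelihood test, adjusted p = 0.99996). It came to -0.015 without vehicle library 2 and to 0.67 without vehicle library 1, so single libraries set its size.

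Cxcr4, the receptor for the marrow chemokine CXCL12, was several times scarcer. It had 113.0, 68.5 and 58.6 CPM with vehicle, and 94.9, 129.2 and 180.3 CPM with glutamine. The upper 2 values were glutamine libraries, but vehicle library 1 was above glutamine library 1. Means were 80.0 ± 29.0 CPM and 134.8 ± 43.0 CPM (n = 3, SD), and the log2 fold change of 0.77 was the largest estimate among the 9 genes in PMN (SE 0.54, interval -0.51 to 2.05). It ranged from 0.51 to 1.10 when each library was left out in turn. Its highest library, glutamine 3, was also the highest for monocyte and macrophage markers, a cell type that can express Cxcr4, and the part of those cells in its level was not tested.

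The balance of the 2 chemokine receptors can be read within a library, where no scaling between libraries enters. Cxcr2 counts were 9.63, 6.81 and 9.91 times the Cxcr4 counts in the vehicle libraries, and 10.4, 4.70 and 4.64 times in the glutamine libraries. Glutamine library 1 had the largest ratio of the 6 and the other glutamine libraries the smallest. The mean log2 ratio was 3.11 ± 0.30 with vehicle and 2.61 ± 0.67 with glutamine (n = 3, SD), a glutamine minus vehicle difference of -0.51 (exact two-sided permutation test, p = 0.4). It stayed negative with each library left out, from -0.31 without glutamine library 3 to -0.89 without glutamine library 1. With 3 libraries per group this test cannot go below 0.1.

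Itgam, the CD11b chain of Mac-1, was the most abundant integrin chain of the 3. Its values were 1859, 933.6 and 979.3 CPM with vehicle and 1215, 1043 and 1907 CPM with glutamine. One library of each group stood near 1900 CPM and the other 4 lay between 934 and 1215 CPM. Mean levels were 1257 ± 521.6 CPM and 1389 ± 457.3 CPM (n = 3, SD), with a log2 fold change of 0.17 (SE 0.38, interval -0.72 to 1.06). Without glutamine library 3 the change was -0.11. The 2 high libraries were vehicle 1, with the tubular genes, and glutamine 3, with the most macrophage markers, and whether either moved Itgam was not tested.

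Itgb2, the common β2 chain CD18, was the steadiest member in the vehicle libraries. It measured 542.3, 500.2 and 449.4 CPM there, and 560.2, 557.9 and 920.2 CPM in the glutamine libraries. On CPM all glutamine libraries were above all vehicle libraries, the one member of the 9 in PMN for which this held, against 5.65% of all genes tested. The lowest glutamine value exceeded the highest vehicle value by little, and after TMM scaling the groups overlapped, 444.0 to 559.6 against 544.3 to 873.1 CPM. Means were 497.3 ± 46.5 CPM and 679.4 ± 208.5 CPM (n = 3, SD), and the log2 fold change was 0.48 (SE 0.29, interval -0.21 to 1.18). Without glutamine library 3 it was 0.21. Csf1r, the macrophage growth factor receptor, parted in the same way on CPM, at 263.9 to 442.5 with vehicle and 453.4 to 986.3 with glutamine, and its part in the Itgb2 values was not tested.

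Itgal, the CD11a chain of LFA-1, was the scarcest of the 9 per length and held the one extreme value. It had 181.8, 108.0 and 87.2 CPM with vehicle. In glutamine libraries 2 and 3 it had 193.3 and 180.1 CPM, but in glutamine library 1 only 5.83 CPM, or 123 counts among 21096083. Both columns deposited for that library gave this low value, since no column pair differed by more than 1.63% for Itgal. The labels do not say what the 2 columns of a library are. Their agreement is therefore not an independent second measurement of the low value. In the same library S100a8 stood at 26040 CPM, and Fpr1, Fpr2 and C5ar1 had their highest values of the 6. Mean levels were 125.7 ± 49.7 CPM and 126.4 ± 104.6 CPM (n = 3, SD), with a log2 fold change of -0.015 (SE 1.06, interval -2.53 to 2.50). Without glutamine library 1 the change was 0.53 (SE 0.53, interval -0.78 to 1.84), and limma-voom on all 6 libraries gave -0.88 (SE 1.18, interval -3.71 to 1.94).

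The ratio of the α chains followed from that library. Itgam counts were 10.2, 8.64 and 11.2 times the Itgal counts with vehicle, and 5.40 and 10.6 times in glutamine libraries 2 and 3, while glutamine library 1 gave 207.6. The mean log2 ratio was 3.32 ± 0.19 with vehicle and 4.51 ± 2.80 with glutamine (n = 3, SD, exact two-sided permutation test, p = 0.8). The glutamine minus vehicle difference was 1.19 over all libraries and -0.40 without glutamine library 1.

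Selplg, which encodes the P-selectin ligand PSGL-1, followed Itgam across libraries. It had 988.1, 445.4 and 481.2 CPM with vehicle and 631.3, 601.5 and 919.6 CPM with glutamine. Again vehicle 1 and glutamine 3 were high and the groups overlapped. Means were 638.2 ± 303.5 CPM and 717.5 ± 175.7 CPM (n = 3, SD), with a log2 fold change of 0.19 (SE 0.40, interval -0.75 to 1.14), which came to -0.023 without vehicle library 2 and to 0.65 without vehicle library 1. Selplg and Itgam were the closest pair among the 9, with a root mean square difference of 0.095 between their centred log2 CPM over the 6 libraries. That is a description over 6 points that share library depth and cell makeup.

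Fpr1, the receptor for bacterial and mitochondrial formyl peptides, had the widest spread after Itgal. Its levels were 673.1, 461.4 and 542.5 CPM with vehicle, and 1421, 885.1 and 401.6 CPM with glutamine. Glutamine libraries 1 and 2 were above every vehicle library and glutamine library 3 was below every one. Means were 559.0 ± 106.8 CPM and 902.8 ± 510.2 CPM (n = 3, SD), and the log2 fold change was 0.75 (SE 0.49, interval -0.40 to 1.91). Without glutamine library 3 it was 1.10 (SE 0.34, edgeR, adjusted p = 0.904), and without glutamine library 1 it was 0.16.

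Fpr2, the formyl peptide receptor that also binds annexin A1, stayed within a narrow range. It had 395.6, 317.6 and 243.9 CPM with vehicle and 426.3, 306.2 and 267.5 CPM with glutamine. The groups overlapped, with means of 319.0 ± 75.9 CPM and 333.3 ± 82.8 CPM (n = 3, SD). Its log2 fold change was 0.11 (SE 0.37, interval -0.76 to 0.98), and -0.19 without glutamine library 1. The Fpr1 counts were 1.70, 1.45 and 2.22 times the Fpr2 counts with vehicle and 3.33, 2.89 and 1.502 times with glutamine, so the same glutamine libraries 1 and 2 stood high. The difference in mean log2 ratio was 0.47 (exact two-sided permutation test, p = 0.3), and it stayed positive, 0.24 to 0.81, with each library left out.

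C5ar1, the receptor for the complement fragment C5a, was the most abundant of the 9 and the one with the smallest error. It had 1329, 1489 and 1711 CPM with vehicle and 2296, 1523 and 2020 CPM with glutamine. Glutamine libraries 1 and 3 exceeded all vehicle libraries, and glutamine library 2 lay between vehicle libraries 2 and 3. Means were 1509 ± 191.6 CPM and 1946 ± 391.9 CPM (n = 3, SD), with a log2 fold change of 0.42 (SE 0.24, interval -0.15 to 0.99). It stayed positive without any 1 library, from 0.20 without glutamine library 1 to 0.56 without glutamine library 2 (edgeR, adjusted p = 0.952).

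**Figure D2:**
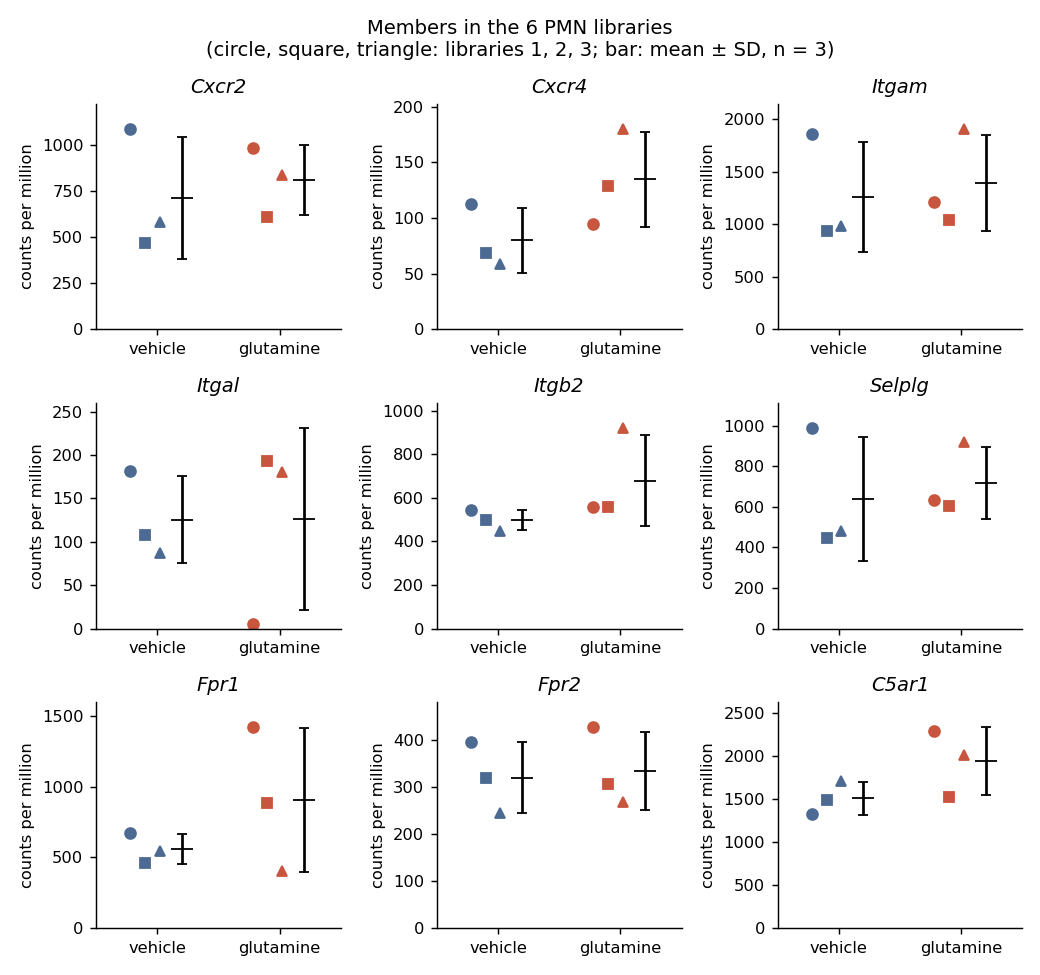
CPM of each of the 9 genes in the 6 PMN libraries, 1 panel a gene, with vehicle in blue, glutamine in red and the mean ± SD beside them (n = 3). Groups overlap in 8 panels, Itgb2 parts by a small margin, and Itgal falls to 5.83 CPM in glutamine library 1.

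Across the 9 genes, 0 passed an adjusted p of 0.05 in PMN and 0 had an unadjusted p below 0.05 (edgeR quasi-likelihood test). Over all genes tested, 0% were called at the adjusted threshold and 3.42% had an unadjusted p below 0.05, and the adjusted p-value of each of the 9 was 0.99996. DESeq2 and limma-voom also called 0 of the 9, at the adjusted and at the unadjusted threshold, although DESeq2 called 237 genes in all. Of the 9 estimates, 8 were above 0, with a median log2 fold change of 0.23, where the median over all genes tested was 0.00020 and 50.01% were above 0. That count moved to between 5 and 9 when single libraries were left out. The pan-leukocyte marker Ptprc (CD45) had an estimate of 0.91 in the same fit (SE 0.33, edgeR, adjusted p = 0.99996), and its part in the members' estimates was not tested. Marker lists in this fit did not all lean the same way, and no difference between lists was tested. Of the 10 neutrophil markers 7 had estimates above 0 (median 0.22) and 3 (Mmp9, Trem1 and Il1r2) had an unadjusted p below 0.05, all higher, where 3.42% of all genes had one. Of the 8 monocyte and macrophage markers 7 were above 0 (median 0.49). Of the 3 pan-leukocyte markers 2 were above 0 and 1 below (median 0.63). Those 2 had an unadjusted p below 0.05 (edgeR), against 3.42% of all genes. Immature neutrophil granule genes gave 2 estimates above and 2 below 0 (median 0.016), and platelet markers 1 of each. Above and below 0 were 4 and 2 tubular epithelial, 4 and 0 erythroid, and 2 and 0 B cell markers. The standard errors of the members had a median of 0.40, against 1.45 over all genes, and 7 of the 9 were more abundant than 95% of the genes tested. The 95% intervals reach a log2 of 0.99 for C5ar1 and run from -2.53 to 2.50 for Itgal, and the misses do not show equal levels.

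**Figure D3:**
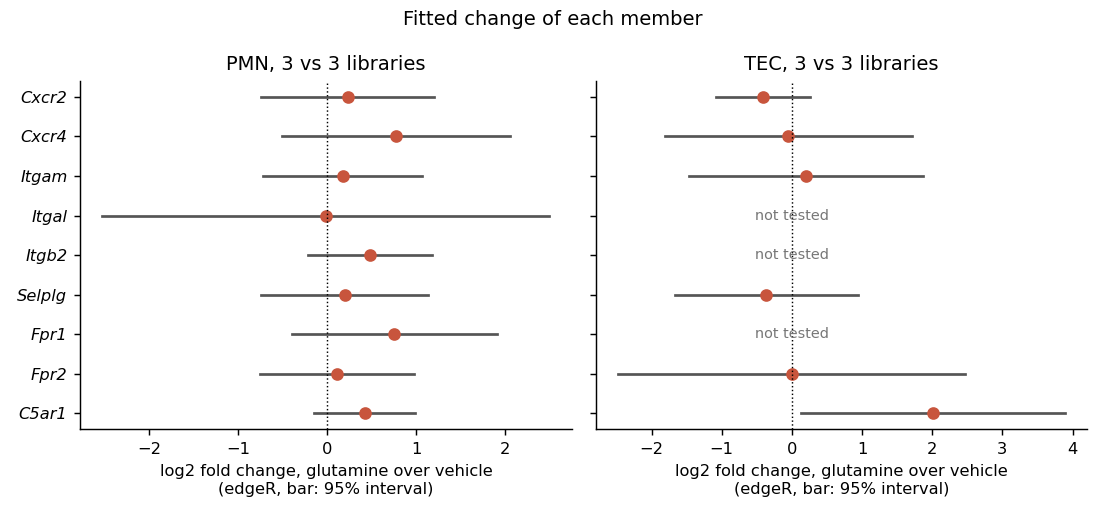
Fitted log2 fold change, glutamine over vehicle, with its 95% interval for each gene in PMN (left) and TECs (right), from edgeR with 3 libraries per group. Every PMN interval includes 0, Itgal has the widest (-2.53 to 2.50), and in TECs the C5ar1 interval (0.12 to 3.89) lies above 0.

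Levels of different genes were compared as CPM per kilobase of merged exons, averaged over the 6 PMN libraries. C5ar1 came first with 672.3 ± 142.1, followed by Fpr1 with 552.0 ± 286.7 (n = 6, SD). A middle group held Itgam (263.3), Fpr2 (251.7), Cxcr2 (249.6), Itgb2 (192.8) and Selplg (158.7), and Cxcr4 (59.4) and Itgal (19.2) were last. Neighbours overlapped in their range over libraries down to Selplg. Selplg was above Cxcr4, and Cxcr4 above Itgal, in 6 of 6 libraries with ranges that did not overlap. Selplg moved from 158.7 to 292.9 per kilobase, and past Fpr2, Itgam, Cxcr2 and Itgb2, when its longest transcript replaced the merged exons. The complementary DNA was primed at the poly(A) tail, and how evenly reads cover long transcripts was not tested.

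**Figure D4:**
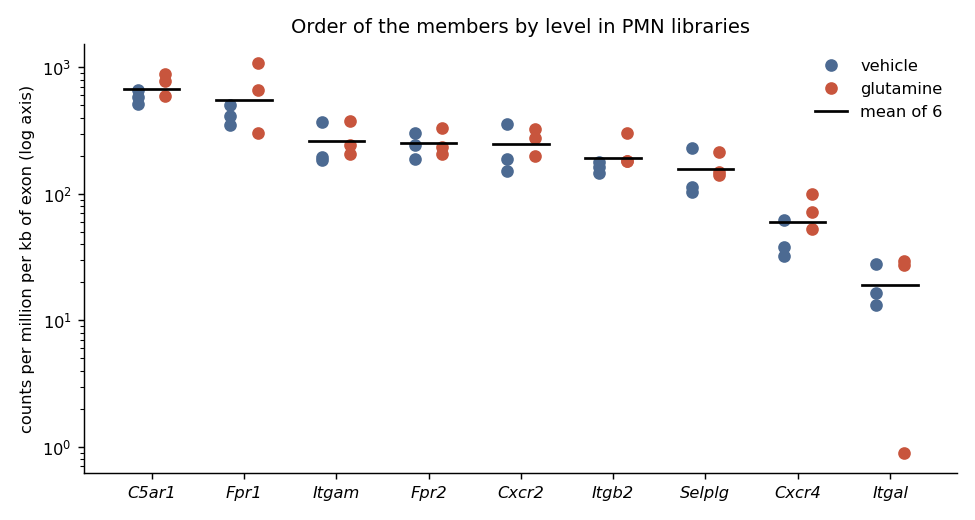
CPM per kilobase of merged exons (log axis) in each PMN library, vehicle blue, glutamine red, with the mean of 6 as a line. C5ar1 and Fpr1 lead, 5 genes lie close together between 158.7 and 263.3, and Cxcr4 and Itgal trail.

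Lists of related genes were read in the same PMN fit, and none of their genes passed the adjusted threshold. Of 12 tested genes among the other chemoattractant receptors, 7 had a positive and 5 a negative estimate (median 0.30), and 1 had an unadjusted p below 0.05, against 3.42% of all genes tested. That gene was C3ar1, the receptor for complement C3a, with 14.3, 87.1 and 43.0 CPM with vehicle and 256.0, 149.1 and 144.4 CPM with glutamine. Its groups did not overlap, with glutamine higher, as for 5.65% of all genes tested, and the 95% interval of its log2 fold change was 0.21 to 3.79 (edgeR, adjusted p = 0.99996). The abundant receptors were Ccr1, which binds CCL3 and CCL5, at 819.3 ± 125.2 against 982.3 ± 110.3 CPM, and Ptafr, the receptor for platelet-activating factor, at 497.2 ± 20.2 against 633.2 ± 106.8 CPM (n = 3, SD, vehicle first). Their log2 fold changes were 0.30 (SE 0.22) and 0.38 (SE 0.23).

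The ligands of the 9 genes gave 4 positive and 5 negative estimates among 9 tested (median -0.15), and 1, Cxcl1, had an unadjusted p below 0.05, against 3.42% of all genes tested. Cxcl2, the CXCR2 ligand that neutrophils make themselves, was the most abundant at 6733 ± 1164 CPM with vehicle and 8798 ± 1719 CPM with glutamine (n = 3, SD), a log2 fold change of 0.43 (SE 0.23). Cxcl1, the other main CXCR2 ligand, had 182.3, 123.2 and 220.7 CPM with vehicle and 489.7, 255.1 and 322.1 CPM with glutamine. These groups did not overlap either, which 5.65% of all genes tested shared in this direction, with a log2 fold change of 1.08 (SE 0.43, edgeR, adjusted p = 0.99996). Anxa1, whose annexin A1 binds Fpr2, had 1268 ± 133.6 and 1102 ± 336.8 CPM (n = 3, SD) and a change of -0.15 (SE 0.29).

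Among selectins and genes that build selectin ligands, 6 of 9 estimates were positive and 3 negative (median 0.32), and 0 had an unadjusted p below 0.05. Cd44, a hyaluronan receptor that also carries E-selectin ligands, was at 695.6 ± 192.5 and 880.0 ± 588.0 CPM (n = 3, SD).

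Integrin activation genes split into 10 positive and 11 negative estimates among 21 tested (median -0.06), and 2 had an unadjusted p below 0.05, 1 in each direction, against 3.42% of all genes tested. Rap1a, a small GTPase that helps switch integrins on, had 163.5, 170.8 and 131.7 CPM with vehicle and 40.4, 86.0 and 27.4 CPM with glutamine. All glutamine values were below all vehicle values, as for 4.91% of all genes tested, with a log2 fold change of -1.58 (SE 0.60, edgeR, adjusted p = 0.99996). The other was Rac2, a GTPase of the cytoskeleton named here after its values were seen, with 321.9, 436.8 and 426.6 CPM against 839.4, 554.2 and 599.6 CPM (no overlap, against a share of 5.65% of all genes) and a log2 fold change of 0.81 (SE 0.31, edgeR, adjusted p = 0.99996). The signalling adaptors Fcer1g and Tyrobp had estimates of -0.082 (SE 0.23) and 0.024 (SE 0.20).

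Of 16 tested genes for receptor coupling and desensitization, 12 had a positive and 4 a negative estimate (median 0.28), and 0 had an unadjusted p below 0.05. Rgs2, which shortens G protein signals, was at 600.5 ± 86.0 and 701.3 ± 251.6 CPM, and Gnb1, a G protein β subunit, at 271.6 ± 186.9 and 215.6 ± 165.8 CPM (n = 3, SD). Plcb2, a phospholipase C activated by chemoattractant receptors, had the smallest p of this list, with an estimate of 4.40 (SE 3.08), and reached 91.2 CPM in glutamine library 1 with at most 6.16 CPM elsewhere. Other integrin chains gave 2 positive and 7 negative estimates among 9 tested (median -1.16), with 0 at an unadjusted p below 0.05. Itgav, the αv chain, had 173.7, 10.1 and 88.1 CPM with vehicle and 2.44, 28.2 and 24.3 CPM with glutamine. Itga5 was at 155.2 ± 76.5 and 149.5 ± 83.0 CPM, and Itgb7 ranged from 0 to 187.6 CPM.

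Among the genes whose pattern over the 6 PMN libraries was most like the mean of the 9 were Antxr2, Gda, Colec12 and Taldo1. Their root mean square differences in centred log2 CPM were 0.15, 0.16, 0.17 and 0.17, where the median over all genes tested was 1.89. Among the 9 themselves Selplg was nearest to this mean (0.20) and Itgal farthest (1.65).

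In TECs the 9 genes served as background, since these cells were sorted against leukocytes. Of the 9, 8 were at 8.52 CPM or less in every TEC library, while their lowest PMN values were 5.83 CPM for Itgal and 58.6 CPM or more for the others. The tables were normalized separately, so the levels are set side by side with no test. Itgam, for one, had 3.33, 1.67 and 1.08 CPM in TEC vehicle libraries 3 to 5 and 3.66, 0.88 and 1.55 CPM in glutamine libraries 1 to 3. Ptprc was at 0.10 to 2.57 CPM and S100a8 at 6.73 to 98.4 CPM in the same libraries, and the source of these counts was not tested.

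Cxcr2 was the exception in TECs. It had 88.6, 65.1 and 86.8 CPM with vehicle and 36.3, 44.8 and 79.9 CPM with glutamine, far above the other members. Its mean in vehicle PMN libraries was 8.87 times that in vehicle TEC libraries. Means were 80.2 ± 13.1 and 53.7 ± 23.1 CPM (n = 3, SD), the groups overlapped, and the log2 fold change was -0.41 (SE 0.30, interval -1.07 to 0.25, edgeR, adjusted p = 0.597). Without glutamine library 3 it was -0.82 (SE 0.26, edgeR, adjusted p = 0.269), and without glutamine library 1 it was -0.18 (SE 0.30, edgeR, adjusted p = 0.861). Of the 31-base words in Cxcr2 transcripts, 12.1% also occurred in transcripts of 1350 other genes. How much of the TEC value came from shared sequence was not tested.

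C5ar1 was low in TECs but the single member there with an unadjusted p below 0.05, which 12.7% of all genes tested had. It had 2.38, 0.88 and 0.10 CPM with vehicle, or 22, 9 and 1 counts, and 5.07, 2.78 and 3.91 CPM with glutamine, or 44, 15 and 38 counts. All glutamine values were above all vehicle values, as for 5.61% of the genes tested. The log2 fold change was 2.01 (SE 0.86, interval 0.12 to 3.89, edgeR, adjusted p = 0.366). With each library left out in turn it ranged from 1.48 to 3.13, and the interval then included 0 in 4 of 6 fits. Ptprc did not overlap either, at 0.10 to 1.66 CPM with vehicle and 1.67 to 2.57 CPM with glutamine, and its part in the C5ar1 values was not tested. At the adjusted threshold 0% of the 14734 genes and 0 of the 6 members tested were called. Of the other members tested, Itgam had an estimate of 0.20, and Cxcr4, Selplg and Fpr2 had estimates of -0.050, -0.37 and -0.0023. Itgb2, Itgal and Fpr1 had too few counts, with Fpr1 at 8.52 CPM in glutamine library 2 and at most 1.21 CPM elsewhere.

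**Figure D5:**
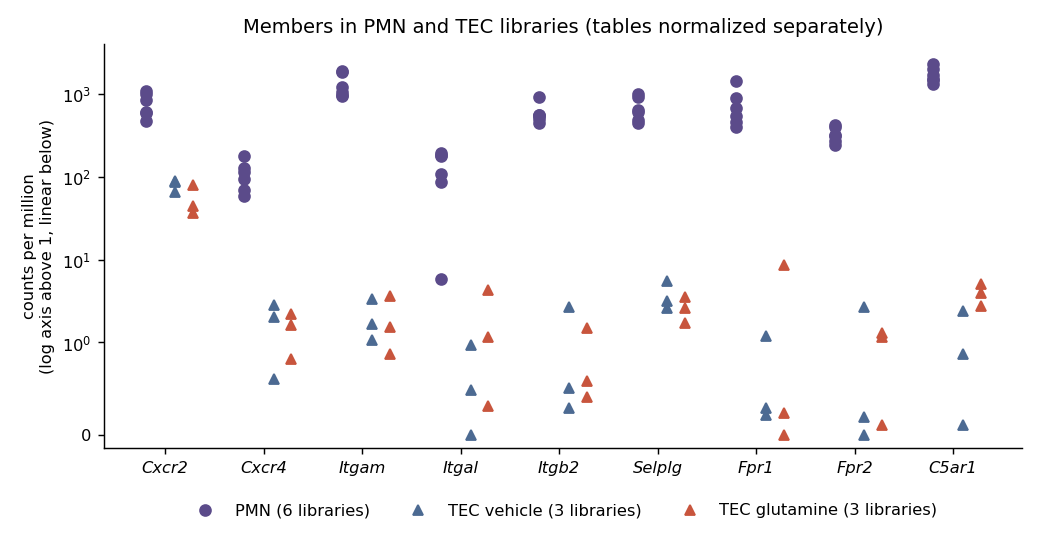
CPM (log axis above 1, linear below) of the 9 genes in the 6 PMN libraries (circles) and in TEC libraries with vehicle (blue triangles) or glutamine (red triangles), 3 each. Only Cxcr2 exceeds 10 CPM in TECs, at 36.3 to 88.6 CPM, and C5ar1 shows TEC groups that do not overlap.

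The lists in TECs also held no gene at the adjusted threshold. The ligands had 10 positive and 4 negative estimates among 14 tested, and 3 negative ones had an unadjusted p below 0.05. Over all genes tested in TECs 12.7% were at that level, the share against which each list count here is read. Fgb, which encodes a chain of fibrinogen, a protein that Mac-1 binds, had 605.1, 258.7 and 47.1 CPM with vehicle and 91.7, 43.5 and 37.3 CPM with glutamine (log2 fold change -2.20, SE 0.67, edgeR, adjusted p = 0.243). Vehicle library 5 lay within the glutamine range. The other negative ligand genes were Fga and Fgg, for the remaining fibrinogen chains, with estimates of -1.71 (SE 0.52) and -1.88 (SE 0.63). Among receptor coupling genes 4 of 14 tested had an unadjusted p below 0.05, all with negative estimates: Plcb3 (-1.11), Gnb2 (-0.53), Gnai3 (-0.52) and Gnb1 (-0.49), of which Gnb2 and Gnai3 were named after their values were seen. Rap1a was the one integrin activation gene of 14 tested at that level, with 43.9, 42.1 and 38.6 CPM with vehicle and 26.3, 23.0 and 25.7 CPM with glutamine, an estimate of -0.56 (SE 0.21, edgeR, adjusted p = 0.316). The remaining lists had 1 gene each at that level, Ptafr (1.01, 6 tested), Itga6 (0.44, 12 tested) and Tpst2 (-0.63, 9 tested). Cxcl2 was at 66.0 to 135.2 CPM in TECs and had an estimate of 0.038 (SE 0.28).

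Some members share sequence with other genes. Gm49368, a longer gene model, covers 68.67% of the Itgam exon bases on the same strand, and 68.3% of Itgam 31-base words occur in other genes. The deposited counts gave it 0 to 20.2 CPM in PMN, the highest in glutamine library 3, against 933.6 CPM or more for Itgam. For Fpr2, 43.0% of the words occur elsewhere, mostly in Gm5966, which was listed at 0 in every PMN library. For Cxcr2 that share was 12.1%, for Selplg 4.04% (spread over 2017 genes), for Itgb2 2.28% and for Fpr1 1.55%, and for Itgal, Cxcr4 and C5ar1 it was 0.11% or less.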

How the data were processed

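Per gene symbol, the authors deposited Salmon's estimated counts without normalization, in 1 table for PMN and 1 for TECs. The submitters' processing notes name Trim Galore 0.6.4, Salmon 1.0.0, DESeq2 and the build mm10, and the labels give reads of 50 bases. In the PMN table, deposited values had been altered by a spreadsheet (unit listed as other): 3.20% of the cells carried extra points and 0.391% were dates, which were turned back into estimated counts with an error below 1 count. Its 2 columns per library differed by less than the counting error for the members in 54 of 54 cases and were averaged as 1 replicate. The labels do not say what these columns are, and they were not treated as independent. Estimated counts were rounded and tested with edgeR 4.0.16 (R 4.3.3; quasi-likelihood, TMM, filterByExpr, Benjamini-Hochberg over all genes, threshold 0.05), separately per cell type. DESeq2 1.42.0 and limma 3.58.1 were alternatives. Ratios used counts plus 0.5 and scipy 1.17.1 exact permutation tests. Totals of 20225246 to 21878446 counts in PMN make the error of counting reads small for the members beside the spread between libraries. That error does not cover the sampling of RNA before sequencing, and the part of such sampling in the spread was not tested. Genes detected numbered 11801 to 13580 in the PMN libraries and 19294 to 22223 in the TEC libraries. The tests were run on simulated data first. PMN replicate numbers follow accession order. Named list genes are the 2 per list most abundant in PMN and the 1 with the smallest p. Members and lists were chosen with earlier results of these data known. Cxcr3, Btk and Alas2 were not used here. Some genes these rules cover are not reported here.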

Additional observations from a re-analysis of the deposited data

How the results depend on the processing

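Of the members tested, 0 were called in PMN or TECs under the alternatives run: DESeq2, limma-voom, RLE or upper-quartile scaling, no filter or a minimum of 10 counts, an adjusted p below 0.1, each library left out, and for PMN the sum, first or second column and dates filled from the other column. In PMN these covered all 9 genes. In TECs they covered 6 to 9, but 2 (Cxcr2 and Selplg) at a minimum of 10 counts, and DESeq2 gave no adjusted p for Cxcr4, Fpr2 and Itgam. Over all genes, DESeq2 called 237 in PMN and 308 in TECs where edgeR called 0, no filter gave 425 in TECs, and leaving out single libraries gave 0 to 0 in PMN and 0 to 36 in TECs; the cause was not tested. Of 90 refits of the PMN fold changes other than leaving out libraries, 89 kept their direction, and Itgal turned to 0.070 with upper-quartile scaling. The farthest move among the 90 was also for Itgal, from -0.015 to -0.88 (SE 1.18) with limma-voom; the cause was not tested. With single PMN libraries left out, fold changes ranged from -0.018 to 0.67 for Cxcr2, -0.11 to 0.56 for Itgam, -0.50 to 0.53 for Itgal, -0.023 to 0.65 for Selplg and -0.19 to 0.29 for Fpr2, and the log2 ratio of Itgam to Itgal from -0.40 to 2.23. In TECs, Fpr2 turned to 0.031 with DESeq2, 0.92 with limma-voom and 0.0057 with RLE scaling, and with libraries left out ranged from -0.58 to 3.06; Cxcr2 ranged from -0.82 to -0.18, Cxcr4 ranged from -0.45 to 0.38, Itgam from -0.50 to 0.71 and Selplg from -0.64 to 0.091. No paired analysis was possible because the PMN labels carry no replicate numbers and the TEC groups share a single number. Depth limits the TEC values of all members but Cxcr2, which rest on at most 54.5 counts per library.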
